A study of Homo sapiens with 2 samples.

Results

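Gene-desert peaks were defined as OTX2 peaks on chromosomes 1 to 22 whose summit lay outside every protein-coding gene record of GENCODE in GRCh38 and more than 200 kb from the 5′ end (TSS) of every such record. By this rule 21602 of the 133985 autosomal peaks were gene-desert peaks (16.1%, Wilson 95% interval 15.9% to 16.3%), out of 137412 peaks in all. They made up 34.0% of the autosomal peaks outside protein-coding genes. The other autosomal peaks comprised 42002 intergenic peaks within 200 kb of a TSS, 59692 peaks in genes within 200 kb of a TSS and 10689 peaks in genes farther than 200 kb from any TSS. The annotation used lacks some genes of GRCh38, and adding the protein-coding records of RefSeq would remove 1992 of the 21602 peaks (9.22%). The rule used positions alone, so no value of peak height, fold enrichment, length, spacing or sequence entered it, although such values can vary with position.

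OTX2 binding was measured by ChIP-Seq in D283, an established medulloblastoma cell line grown as tumorspheres in neural stem cell medium. The paper describes the spheres as having high OTX2, a term it also uses for its scramble siRNA controls. There was 1 library pulled down with an OTX2 antibody and 1 input library of sheared chromatin from the same line without antibody. The ChIP library held 61259377 fragments after duplicate removal and the input library 22521186. With 1 library per group there is no replicate error and no test. Peaks of a single library are not replicates, and every interval given covers counting error only. A single line also carries its own gains and losses of DNA, which are part of the local input at each site.

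OTX2 is a homeodomain transcription factor that patterns the forebrain and midbrain and is expressed in most Group 3 and Group 4 medulloblastomas. Factors of its class bind DNA at the core TAATCC, and less strictly at TAATCT. Gene deserts are long stretches without protein-coding genes, and many of them flank developmental regulators. They can hold distal enhancers that act on a promoter far away, as well as long non-coding RNA (lncRNA) genes.

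Sequence in the build of the peaks was held for the promoter windows of RefSeq genes (GRCh38.p14), each running from 250 bases before to 50 after the gene's start. A gene-desert summit fell in 99 such windows. Of these, 8 belonged to genes that RefSeq, but not the GENCODE annotation used, records as protein-coding, and the other 91, with 87 distinct summits, were all lncRNA promoters. The 6 windows with the strongest summits among the 91 are shown because they let the bound sequence be read directly. Capitals mark TAATCC or TAATCT on either strand (GGATTA or AGATTA when read on the other strand), and matches may overlap. Each window is given on the strand of its gene, 5′ to 3′.

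The window of LOC105374754 (chr2:59389459-59389758, minus strand) held a summit 35 bp upstream of the start, where 187 fragments gave a fold enrichment of 27.8. LINC02058 (chr5:92939737-92940036, minus strand) had its summit 9 bp downstream (221 fragments, fold enrichment 26.5) and no match in the window. At LINC02428 (chr4:103424792-103425091, plus strand) 200 fragments covered a summit 26 bp upstream, and the fold enrichment was 25.4. LOC107984622 (chr13:67734306-67734605, minus strand) had its summit 206 bp upstream, within the match, with 161 fragments and a fold enrichment of 23.9. CASC6 (chr6:91690379-91690678, minus strand) had its summit 43 bp downstream, within a match, with 178 fragments and a fold enrichment of 20.7. At LINC02233 (chr4:159777735-159778034, minus strand) 143 fragments covered a summit 105 bp upstream, and the fold enrichment was 19.5.
LOC105374754: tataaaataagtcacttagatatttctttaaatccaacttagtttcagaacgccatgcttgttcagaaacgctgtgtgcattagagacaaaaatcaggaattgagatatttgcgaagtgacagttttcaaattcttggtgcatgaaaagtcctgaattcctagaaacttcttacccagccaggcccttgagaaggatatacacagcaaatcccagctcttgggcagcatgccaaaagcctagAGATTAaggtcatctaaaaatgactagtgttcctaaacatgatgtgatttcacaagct
LINC02058: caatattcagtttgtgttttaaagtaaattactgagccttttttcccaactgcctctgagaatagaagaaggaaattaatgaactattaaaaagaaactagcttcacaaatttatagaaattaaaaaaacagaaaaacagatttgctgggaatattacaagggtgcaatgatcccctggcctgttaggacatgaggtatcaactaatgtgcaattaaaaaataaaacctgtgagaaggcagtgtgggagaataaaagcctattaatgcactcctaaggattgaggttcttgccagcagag
LINC02428: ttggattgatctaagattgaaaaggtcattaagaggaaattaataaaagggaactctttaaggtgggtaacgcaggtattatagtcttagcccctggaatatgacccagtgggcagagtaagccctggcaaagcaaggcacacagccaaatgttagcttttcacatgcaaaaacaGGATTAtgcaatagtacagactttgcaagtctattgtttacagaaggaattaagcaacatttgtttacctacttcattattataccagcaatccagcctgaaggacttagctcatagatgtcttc
LOC107984622: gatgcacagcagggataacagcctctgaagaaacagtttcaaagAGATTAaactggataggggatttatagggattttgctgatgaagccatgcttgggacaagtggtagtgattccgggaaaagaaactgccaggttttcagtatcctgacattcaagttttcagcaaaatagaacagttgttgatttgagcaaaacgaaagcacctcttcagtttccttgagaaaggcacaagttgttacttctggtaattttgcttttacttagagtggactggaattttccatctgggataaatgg
CASC6: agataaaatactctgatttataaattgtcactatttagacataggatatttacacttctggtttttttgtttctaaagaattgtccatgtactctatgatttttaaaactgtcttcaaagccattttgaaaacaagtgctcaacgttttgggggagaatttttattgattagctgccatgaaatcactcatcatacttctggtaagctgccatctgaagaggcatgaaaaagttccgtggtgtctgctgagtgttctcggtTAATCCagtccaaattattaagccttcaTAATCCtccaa
LINC02233: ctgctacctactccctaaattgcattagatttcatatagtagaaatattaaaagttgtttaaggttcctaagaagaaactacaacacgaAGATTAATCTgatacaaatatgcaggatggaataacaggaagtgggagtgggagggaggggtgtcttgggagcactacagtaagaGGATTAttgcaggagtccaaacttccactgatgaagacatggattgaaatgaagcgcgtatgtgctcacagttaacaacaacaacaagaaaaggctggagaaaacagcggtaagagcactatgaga

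The matches lay close to the summits in most of these windows. TAATCC or TAATCT was present in 46 of the 91 lncRNA windows with a gene-desert summit (50.5%, Wilson 95% interval 40.5% to 60.6%), against 12.8% of all 33725 autosomal promoter windows of the same length. Promoter windows in deserts held these letters more often than others even without a summit, in 490 of 2184 windows (22.4%, interval 20.7% to 24.2%). In 37 of the 46 windows with a match the nearest match was within 50 bp of the summit, and the median distance was 20 bp. Of the 25 windows whose summit had a fold enrichment of at least 10, 18 held a match (72.0%, interval 52.4% to 85.7%), against 28 of 66 windows with a weaker summit (42.4%, interval 31.2% to 54.4%). TAATCC, with or without TAATCT in the same window, was found in 13 of the 25 and in 14 of the 66. This compares with 6.37% of all autosomal windows and 9.52% of desert windows without a summit. The median fold enrichment was 8.89 over the 46 windows with a match and 5.93 over the 45 without one. The 91 windows have 87 distinct summits, so a shared summit counts more than once in these medians, shares and intervals. A match is a description of the letters in the window, and the part of base composition in these shares was not tested.

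**Figure D1:**
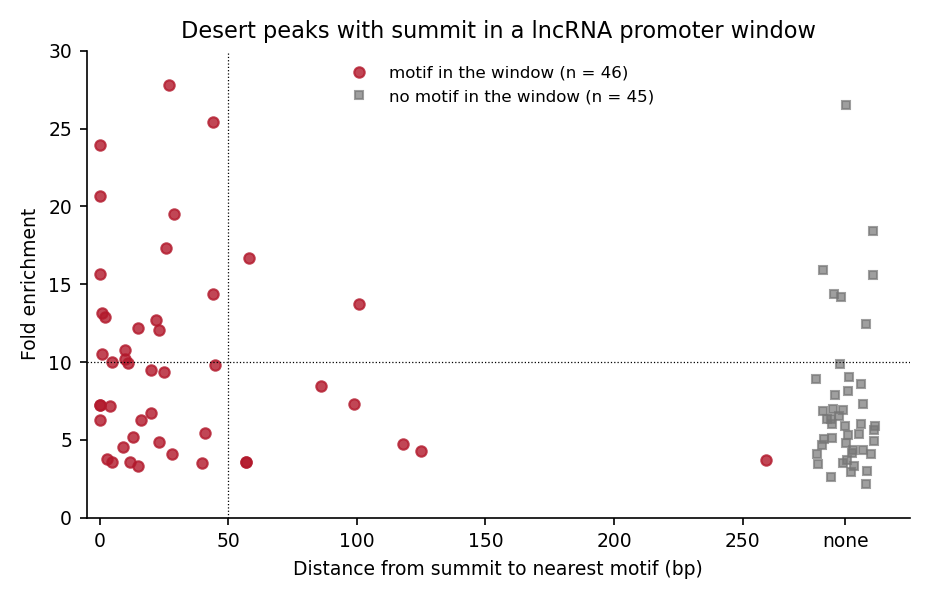
Fold enrichment at the gene-desert summit in each of the 91 lncRNA promoter windows, against the distance in bp from the summit to the nearest match to the OTX2 core, with windows without a match at the right (spread sideways for legibility). Dotted lines mark 50 bp and a fold enrichment of 10: 37 of the 46 windows with a match lie left of the first line, and 7 of the 45 windows without one lie above the second.

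OTX2 peaks in gene deserts were somewhat stronger than peaks elsewhere. Fold enrichment is the scaled number of fragments at the summit over the local input, with 1 added to each. Its median was 6.42 in gene deserts (95% order-statistic interval 6.38 to 6.52) and 6.03 over all other autosomal peaks (interval 5.99 to 6.07). The middle of the gene-desert distribution ran from 4.33 at the lower quartile to 11.2 at the upper quartile, and the values spanned 1.24 to 53.7. Peak height had a median of 55 fragments and a range of 15 to 446, against a median of 53 fragments elsewhere. The distributions overlapped over almost their whole range, so the difference is one of shares.

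A fold enrichment of at least 10 was reached by 6284 gene-desert peaks (29.1%, Wilson 95% interval 28.5% to 29.7%), against 26.3% of all autosomal peaks. At least 20 was reached by 1717 (7.95%, interval 7.60% to 8.32%), against 6.76%. Of the gene-desert peaks 452 (2.09%, interval 1.91% to 2.29%) reached 30, against 1.57% of all autosomal peaks. Among the 1000 autosomal peaks with the highest fold enrichment 215 lay in gene deserts (21.5%, interval 19.1% to 24.2%), where 16.1% of all peaks lay. Long peaks were less frequent: 7.05% (interval 6.72% to 7.40%) were at least 1000 bp long, against a background of 8.26%, and the median length was 430 bp against 444 bp elsewhere.

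The local input under the peaks was set beside these shares. It was at its floor, the lowest value that peak calling allowed, in 25.4% of gene-desert peaks (interval 24.8% to 26.0%) against 25.2% of all autosomal peaks. A local input 3 or more times as high as the floor was found in 4.20% (interval 3.94% to 4.48%) against 4.3%. By class, the share at the floor was 27.3% (interval 26.8% to 27.7%) for intergenic peaks near a TSS, 23.7% (interval 22.9% to 24.5%) for peaks in genes far from a TSS and 23.9% for peaks in genes near one. Its part in the differences of fold enrichment was not tested.

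**Figure D2:**
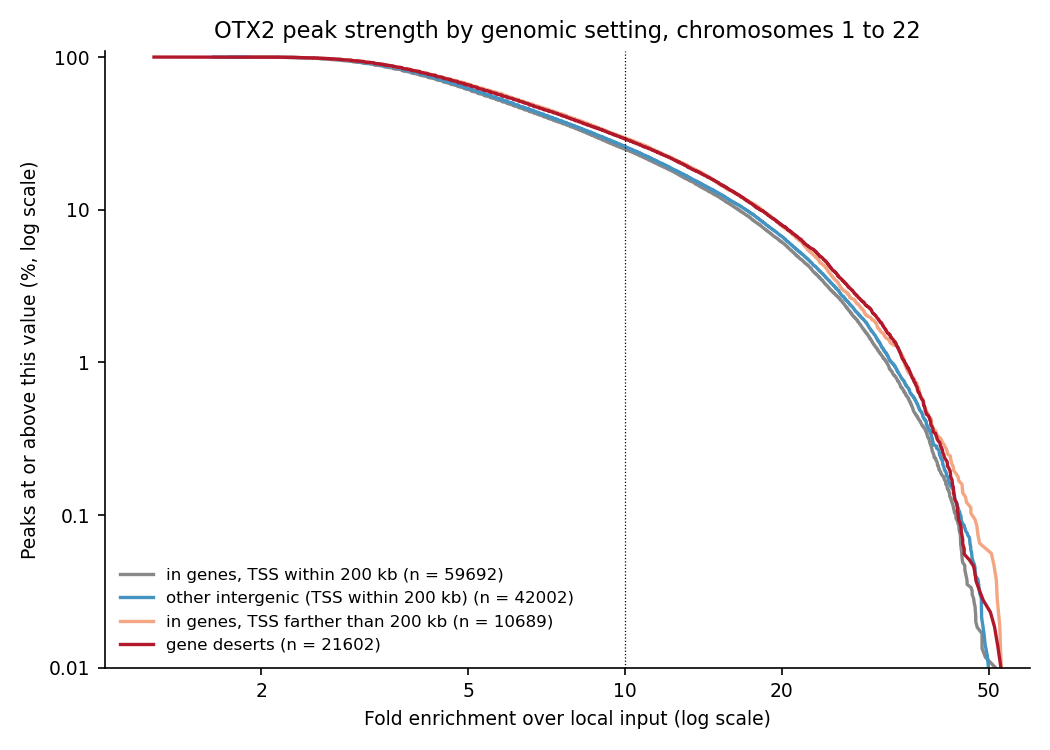
Share of autosomal OTX2 peaks at or above each fold enrichment (both axes logarithmic), for gene deserts and the 3 other genomic settings. The curves for gene deserts (29.1% at the dotted line of 10) and for genes far from a TSS (29.5%) run above those for intergenic peaks near a TSS (26.0%) and for genes near a TSS.

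Peaks far from any TSS were the stronger ones both inside and outside genes. Peaks inside genes but farther than 200 kb from any TSS had a median fold enrichment of 6.52 (interval 6.39 to 6.65), and 29.5% of them (interval 28.7% to 30.4%) reached 10. These intervals overlap those of gene-desert peaks. Intergenic peaks within 200 kb of a TSS had a median of 6.08 (interval 6.01 to 6.10), and peaks in genes within 200 kb a median of 5.94 (interval 5.92 to 5.95). Outside genes, the share reaching 10 was 15.2% within 1 kb of a TSS, 24.3% at 1 to 10 kb, 26.5% at 10 to 50 kb, 28.2% at 50 to 100 kb and 28.8% at 100 to 200 kb. Within gene deserts it was 29.7% at 200 to 300 kb, 29.1% at 300 to 500 kb, 28.8% at 500 to 1000 kb and 28.4% beyond 1000 kb. The rise lay at distances shorter than the limit of the rule, and the shares within the deserts ranged from 28.4% to 29.7%. At the limit itself, the 715 intergenic peaks 190 to 200 kb from a TSS had a median of 6.39 and the 677 peaks at 200 to 210 kb a median of 6.65.

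**Figure D3:**
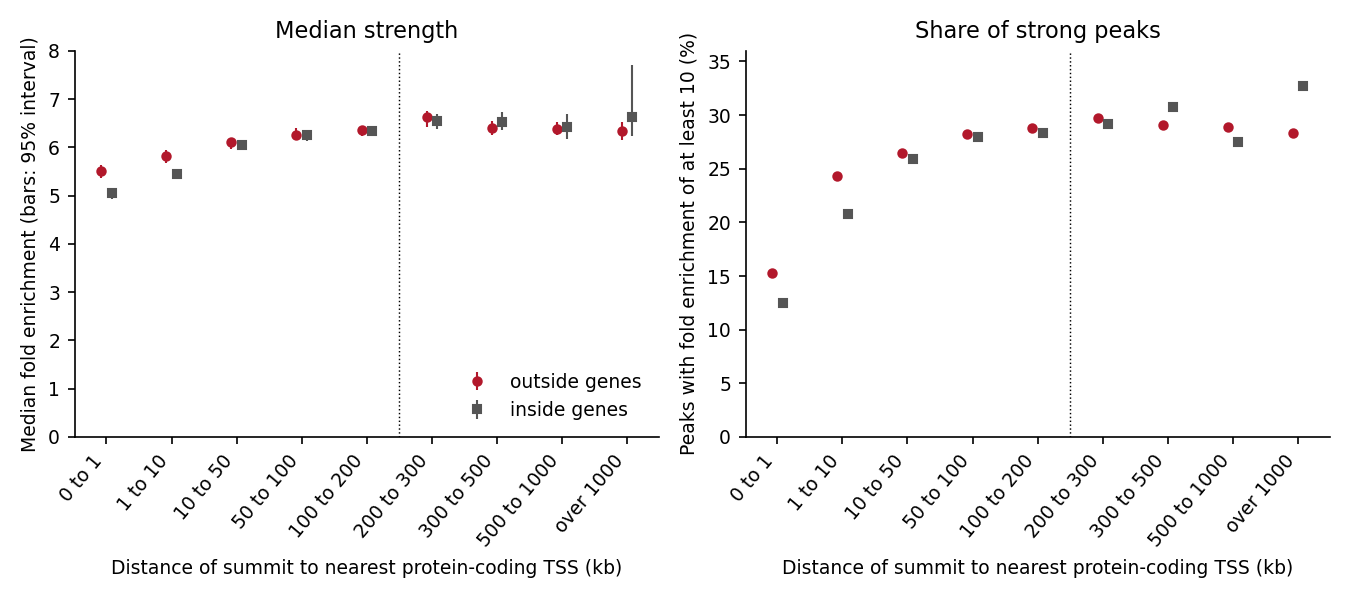
Median fold enrichment with its 95% interval (left) and share of peaks with a fold enrichment of at least 10 (right) against the distance in kb from the summit to the nearest protein-coding TSS, outside genes (circles) and inside genes (squares). The dotted line marks 200 kb: outside genes the share is 15.2% within 1 kb and 29.7% at 200 to 300 kb, and it is 28.4% beyond 1000 kb.

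Deserts held fewer peaks per unit of sequence than the rest of the genome. Uninterrupted stretches that satisfied the rule numbered 1076 and covered 724 Mb, or 25.9% of the 2799 Mb between the first and last peaks of the autosomes. They held 29.8 peaks per Mb (Poisson 95% interval 29.4 to 30.2) against 47.9 over all autosomes, a ratio of 0.623. Stretches of at least 1 Mb without any peak, 39 in all and mostly in deserts (112 of 126 Mb), weigh on this ratio. Without them the densities were 35.3 and 50.1 peaks per Mb and the ratio was 0.704, but this alternative removes sequence by the absence of peaks. Whether reads could be mapped in those stretches was not tested. Density outside genes was 39.6 peaks per Mb at 200 to 300 kb and 14.6 beyond 1000 kb, or 40.3 and 26.8 without those stretches. The nearest TSS was at a median distance of 441 kb and at most 6025 kb, values that the rule bounds from below.

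The lower density held across the chromosomes, and the higher fold enrichment less evenly. Density without peak-free stretches was lower in deserts than over the whole chromosome on all 22 autosomes, with ratios from 0.619 on chromosome 22 to 0.782 on chromosome 7. Median fold enrichment was higher in gene deserts than among the other peaks of the same chromosome on 21 of 22, with differences of up to 0.967 on chromosome 16. On chromosome 1 the difference was only 0.00476. Chromosome 21 went the other way, with a median of 5.39 in gene deserts and 6.19 elsewhere. Its short arm held, between 8209573 and 8988436, all 24 gene-desert peaks whose local input was 20 or more times the floor. Of those, 18 lay in the RefSeq records of 45S ribosomal RNA, whose copies are repeated along the array, and had a median fold enrichment of 2.04 at a median height of 286.5 fragments. Without these 18 the median of chromosome 21 was 5.81, still below the other peaks of the chromosome.

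Peaks in deserts were spread over many stretches but unevenly. Of the 1076 deserts 133 held no peak, with a median length of 30.6 kb and a greatest length of 777 kb. A subset of 153 deserts held 50% of the peaks. Among the 387 deserts of at least 500 kb the density had a median of 32.1 peaks per Mb, with quartiles of 22.8 and 46.5. There were 20 deserts with at least 100 peaks.

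The stretch between SEL1L and FLRT2 (chr14:81733854-85330143) held 182 peaks in 3.60 Mb, of which 60 reached a fold enrichment of 10. FLRT2 encodes a transmembrane protein of cell adhesion and axon guidance. The stretch between OTOL1 and SI on chromosome 3 held 162 peaks, with 37 reaching 10. That between MAT2B and TENM2 on chromosome 5 held 151, with a median fold enrichment of 7.13. TENM2, like TENM3 and TENM4, encodes a teneurin, a large synaptic adhesion protein. The stretch between TENM4 and FAM181B on chromosome 11 held 141 peaks and that between AGA and TENM3 on chromosome 4 held 130. Between CELF4, an RNA-binding protein of neurons, and PIK3C3 on chromosome 18 there were 146 peaks. The remaining deserts of the 10 fullest lay between SORCS1 and XPNPEP1 (137 peaks), ZEB2 and ACVR2A (136), SLITRK5 and GPC5 (126) and OLFM4 and PRR20A (122).

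By density the order was different. Among deserts of at least 500 kb, the stretch from USP24 to the gene recorded as ENSG00000284686 on chromosome 1 held 71 peaks, or 93.7 per Mb. The stretch between SULF2 and PREX1 on chromosome 20 followed with 92.5 per Mb, then that between KLHL1 and DACH1 on chromosome 13 with 90.3. The stretch between ACTBL2 and PLK2 on chromosome 5 had 90.1 per Mb, and of its 52 peaks 21 reached a fold enrichment of 10 (40.4%). That between TBL1XR1 and KCNMB2 on chromosome 3 had 88.4 per Mb. Some deserts of this length held almost no peaks, with a 5th percentile of 2.13 peaks per Mb. This percentile includes deserts with peak-free stretches of at least 1 Mb, and whether reads could be mapped there was not tested. A sparse desert of over 1 Mb without such a stretch, chosen after the values were seen, ran between HS6ST1 and RAB6C on chromosome 2. It held 3 peaks in 1.26 Mb, none reaching 10.

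**Figure D4:**
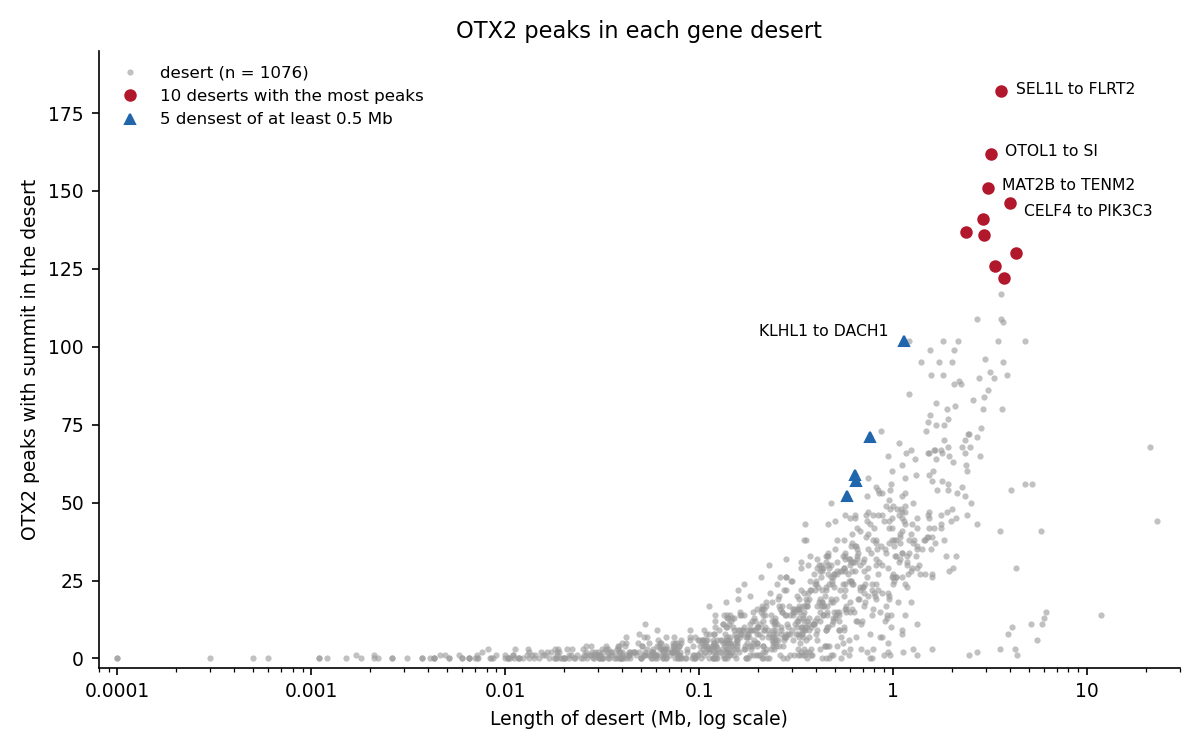
Number of OTX2 peaks in each of the 1076 deserts against the length of the desert in Mb (log scale), with the 10 deserts with the most peaks (red circles) and the 5 densest of at least 0.5 Mb (blue triangles) marked. The fullest desert, between SEL1L and FLRT2, holds 182 peaks in 3.60 Mb, while the longest, of 22.8 Mb, lies low in the plot. Lengths include peak-free stretches of at least 1 Mb.

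The strongest gene-desert peak was at chr4:178752744-178753638, between AGA and TENM3. It had 363 fragments at its summit (Poisson 95% interval 327 to 402) and a fold enrichment of 53.7, and only 5 autosomal peaks were stronger. The nearest TSS, that of AGA, was 1311 kb away, and the next summit was 26346 bp away, so the peak stood alone. The second was at chr3:153630803-153631943 between RAP2B and ARHGEF26, within the lncRNA LINC02006, with 358 fragments and a fold enrichment of 53.0. The third was at chr11:106462986-106463815 between AASDHPPT and GUCY1A2, with 396 fragments and a fold enrichment of 52.1.

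The peak at chr12:88935527-88936351 lay between KITLG, the ligand of the KIT receptor, and DUSP6, a phosphatase that acts on ERK, where 392 fragments gave a fold enrichment of 51.3. The peak at chr9:99563395-99565386 lay 258 kb from NR4A3, an orphan nuclear receptor, with 372 fragments and a fold enrichment of 50.4. The peak at chr18:60761911-60762730 lay between MC4R, the melanocortin receptor of appetite control, and the cadherin CDH20, with a fold enrichment of 48.8. The peak at chr3:8259507-8260693 lay between GRM7, a metabotropic glutamate receptor, and LMCD1, within the record of LMCD1-AS1, with a fold enrichment of 48.0. The last 3 of the 10 had fold enrichments of 47.3 (between MSR1 and FGF20), 47.1 (between PYDC2 and FGF12) and 46.8 (between CDH12 and PRDM9). The Poisson intervals of the heights overlap between neighbours in this order, so counting error leaves the order of neighbours unresolved. Peaks farther apart in it can differ in height, such as the third (396 fragments, interval 358 to 437) and the tenth (316 fragments, interval 282 to 353). All 10 had a local input between 3.99 and 4.63, near the floor.

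Gene-desert peaks stood farther apart than other peaks. Another summit lay within 10 kb of 64.9% (interval 64.3% to 65.5%), against 74.6% of all autosomal peaks, and the median distance to the next summit was 5746 bp against 3987 bp among peaks outside deserts. When neighbouring gene-desert summits within 10 kb were joined, there were 12431 runs, of which 7662 were single peaks, 4278 held 2 to 4 peaks, 456 held 5 to 9 and 35 held at least 10. Those 35 runs held 465 peaks.

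The longest run, chosen after its values were seen, held 43 peaks over 90.4 kb between KLHL1, a neuronal actin-binding protein, and DACH1, a transcription factor of eye and limb development (summits 70668390 to 70758823 on chromosome 13). Peaks covered 41.3% of this span. The median fold enrichment was 4.83, with a range of 1.95 to 33.8, and 7 of the 43 peaks reached 10. The tallest peak, at chr13:70755103-70756100, had 366 fragments. A second run of 22 peaks over 45.3 kb lay in the same desert. The highest local input in the longest run was above 3 times the floor (11.97), and its part in the number of peaks was not tested. The next runs held 18 peaks within the lncRNA MIR99AHG on chromosome 21, 17 and 16 between OTOL1 and SI on chromosome 3, and 15 between SPRED2 and MEIS1 on chromosome 2. MEIS1 is a homeodomain factor of development and leukaemia.

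**Figure D5:**
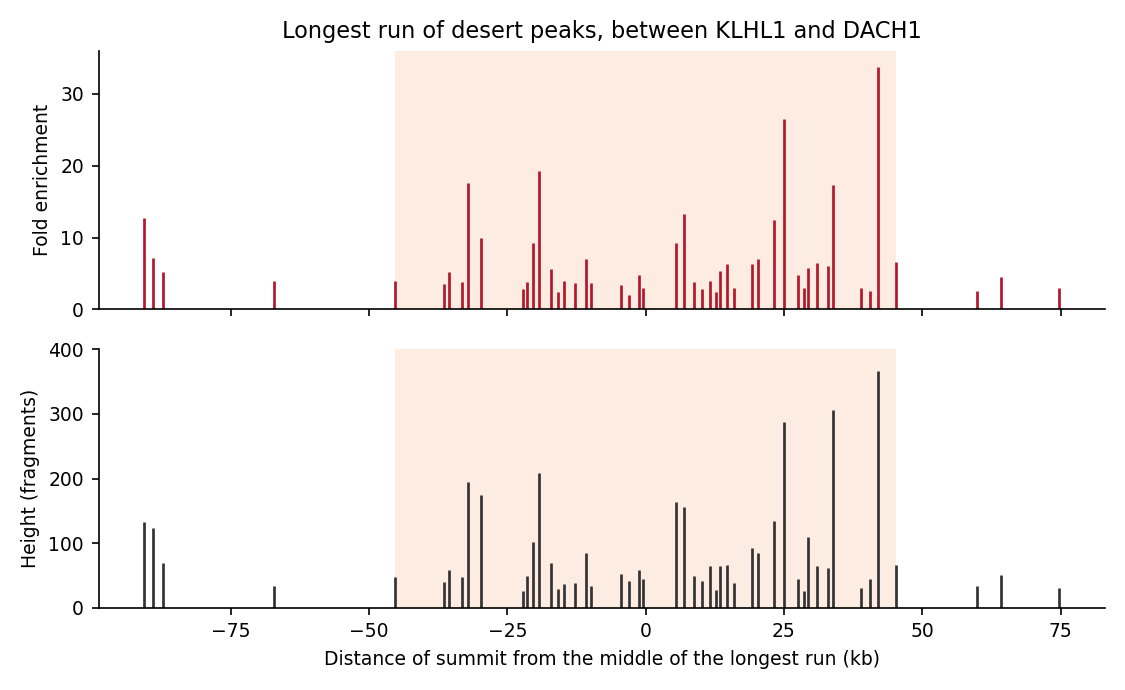
Fold enrichment (top) and height in fragments (bottom) of each peak against its distance in kb from the middle of the longest run, which is shaded. Most of the 43 peaks are low, with a median fold enrichment of 4.83, and the highest reaches 33.8 with 366 fragments.

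Gene-desert summits lay in lncRNA gene records more often than other summits. A lncRNA record held 7788 of them (36.1%, interval 35.4% to 36.7%), against 18.7% of all autosomal peaks and 26.9% of intergenic peaks within 200 kb of a TSS. For peaks inside protein-coding genes, which the rule excludes, the share was 7.92% far from a TSS and 8.60% near one. Part of the contrast with all autosomal peaks is therefore fixed by the rule. Records of lncRNAs also cover much of the deserts, 27.1% of their sequence (31.8% without peak-free stretches). Their cover of intergenic sequence near a TSS was not measured, so the contrast with 26.9% is not adjusted for it. Density was 39.6 peaks per Mb inside the records and 26.2 outside, or 40.1 and 33.1 without peak-free stretches. The median fold enrichment was 6.51 inside (interval 6.38 to 6.63) and 6.39 outside (interval 6.29 to 6.51). In all 325 summits lay within 1 kb of a lncRNA TSS, with a median fold enrichment of 6.47 (interval 5.80 to 6.83) and 29.8% reaching 10.

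The lncRNA record with the most gene-desert peaks was MIR99AHG on chromosome 21, the host gene of the miR-99a cluster, with 83 peaks and a highest fold enrichment of 37.6. ENSG00000234810 on chromosome 1 followed with 62, LINC02240 on chromosome 5 with 59, ENSG00000228566 on chromosome 10 with 57 and CCDC26 with 54. ENSG00000248752 held 53 and ENSG00000286481 held 49. LINC03000 held 48, and LINC02994 and LINC02934 held 45 each. Peaks per Mb of record ranged from 49.7 in ENSG00000286481 to 115.6 in MIR99AHG. Close to a lncRNA TSS, the strongest peak lay 153 bp upstream of LINC02380 (chr4:57424018-57424765), with 289 fragments and a fold enrichment of 42.8. The next 4 lay near ENSG00000289116 (40.4, between INSC and SOX6), LINC02120 (37.9), ENSG00000239661 (33.6, between ZIC1 and AGTR1) and ENSG00000229209 (29.3, between TMEM182 and POU3F3).

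MicroRNA hairpins were compared with the summits as well. Of 100 RefSeq hairpins whose middle lay in a desert, 9 had a gene-desert summit within 1 kb, while 188 of all 1461 autosomal hairpins had a summit of any autosomal peak that near (12.9%). The hairpins with the strongest summits, named after the values were seen, were MIR4704 and MIR4283-1. The summit near MIR4704 (chr13:66217978-66219170, 488 bp from the middle of the hairpin) had 371 fragments and a fold enrichment of 39.1, with the nearest TSS, that of the protocadherin PCDH9, at 1012 kb. The summit near MIR4283-1 had 140 fragments and a fold enrichment of 20.8. The hairpin of MIR4283-2, also on chromosome 7, has the same sequence, with nearby summits of fold enrichment 10.5 and 17.6. Whether reads can be told apart between these copies was not tested. The mature sequences from RefSeq, with the seed (bases 2 to 8) in capitals, show that the arms have different seeds.
hsa-miR-4704-5p: gACACUAGgcaugugagugauu
hsa-miR-4704-3p: uCAGUCACauaucuagugucua
hsa-miR-4283: uGGGGCUCagcgaguuu

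Each gene-desert peak was also assigned to the protein-coding gene with the nearest TSS, which says where the peak lies and not which gene it acts on. In all 1449 genes were nearest to at least 1 gene-desert peak, and 79 of them to at least 50. KLHL1 and FLRT2 led with 114 each, followed by SI with 112 and SEL1L with 102. PCDH7, a protocadherin, had 94, MAT2B 89, XPNPEP1 88, CELF4 87, USP25 86 and ZNF608 85. Similar counts came from unequal lengths of desert: PCDH7 had 4.07 Mb and 23.1 peaks per Mb, while USP25 had 0.824 Mb and 104.4 per Mb. The median fold enrichment was 5.47 near KLHL1 and 7.12 near MAT2B.

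Developmental transcription factors, a class of genes long known to border deserts, were counted as a list. Of 116 listed factors on the autosomes, 73 bordered desert sequence and 64 were nearest to at least 1 gene-desert peak. Over all protein-coding genes 9.17% bordered desert sequence and 7.64% were nearest to a gene-desert peak. Among genes that bordered desert, the share nearest to a peak was 87.7% in the list and 83.3% over all genes. The larger contrast was in bordering a desert, which gene positions and the rule fix without any OTX2 value. Their 30.5 Mb of desert held 1050 peaks, or 34.4 per Mb (Poisson interval 32.4 to 36.6), against 29.8 per Mb over all deserts with peak-free stretches and 35.3 without them. The median density per gene was 35.4 per Mb in the list and 33.9 over all genes, and the median fold enrichment was 6.34 (interval 5.99 to 6.79). ZEB2, a zinc-finger repressor of neural crest and forebrain development, had 68 peaks with a median fold enrichment of 5.34. NR2F2 had 57 and NR2F1 55, both nuclear receptors of cortical patterning, with medians of 7.53 and 8.36. SOX9, known for a long upstream regulatory desert, had 53 peaks, with a median of 6.11 and a highest fold enrichment of 36.9. BCL11B, a zinc-finger factor of cortical neurons, had 45 with a median of 6.24.

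Lists of cell adhesion and axon guidance genes were counted in the same way. Of 55 cadherins, protocadherins and synaptic adhesion molecules, 48 bordered desert. Of these, 45 (93.8%, against 83.3% over all genes that border desert) were nearest to a gene-desert peak. Such shares, here and in the other lists, take no account of the length of desert per gene. The 48 genes, out of 1739 that bordered desert, had 8.21% of its length. They had 1700 peaks in 59.5 Mb, or 28.6 per Mb (interval 27.2 to 29.98), against 29.8 over all deserts. Their median fold enrichment was 6.40. FLRT2 (114), PCDH7 (94), SLITRK5 (79), TENM3 (73), TENM4 (71) and SLITRK1 (70) had the most. Of 31 axon guidance genes, 27 bordered desert and 23 of these (85.2%) were nearest to a gene-desert peak, with 603 peaks at 33.4 per Mb (interval 30.7 to 36.1) and a median of 6.66. ROBO1, a receptor for SLIT proteins, had 60 peaks. Its peaks had a median fold enrichment of 7.22. The ephrin receptors EPHA4 and EPHA7 had 56 and 52, with medians of 7.88 and 5.77. SEMA6A, a transmembrane semaphorin, had 48 with a median of 8.24. The ephrin EFNA5 had 47 with a median of 9.39, and the semaphorin receptor PLXNA2 had 45 with a median of 5.72.

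Signalling ligands and antagonists had fewer peaks than the other lists, but also the least desert, 4.85 Mb. Their density lay between those of the other lists. Of 31 on the autosomes, 19 bordered desert and 17 of these (89.5%, against 83.3% over all such genes) were nearest to a gene-desert peak, with 153 peaks at 31.6 per Mb (interval 26.8 to 36.99) and a median fold enrichment of 5.81 (interval 5.20 to 7.32). FSTL5, a follistatin-like secreted protein, had 31 peaks with a highest fold enrichment of 42.0. The bone morphogenetic proteins BMP2 and BMP4 had 21 and 17, TGFB2 and the activin subunit INHBA 17 each, and FGF10 7. In all 4 lists the interval of the median fold enrichment held the value of all gene-desert peaks, 6.42.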

How the data were processed

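The authors sequenced 1 OTX2 ChIP library and 1 input library of D283 tumorspheres and mapped the reads to GRCh38 using Bowtie2 2.2.4. Peaks were called by the authors in MACS2 2.1.0.20140616 (q cutoff 0.05, effective genome size 2700000000, 1 fragment per position). The study states that blacklisted regions were masked. For each summit the authors deposited the pileup, a fragment coverage signal scaled to the smaller library. The fold enrichment they deposited is the ratio of pileup to local input after adding 1 to both. Significance was deposited by the authors as −log10 of the p-value and of the q-value. Each fragment adds 0.735 to the pileup, which gave whole fragments for 100.0% of peaks (tolerance 0.01 fragments). Local input was derived from both values and was never below 3.99 beyond rounding, its floor. With 22521186 input fragments against 61259377 ChIP fragments, the input limits the precision of fold enrichment.

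Gene records were those of GENCODE release 44 in GRCh38, read from the original positions carried by its lifted annotation, without converting coordinates. The members and gene lists were chosen with earlier results of these data known. The named items were the 10 strongest peaks, the 10 fullest and 5 densest deserts, the 10 most frequent nearest genes and lncRNAs, the 5 strongest peaks within 1 kb of a lncRNA TSS and up to 6 members of each list. A gene covered by these rules is not reported here. Shares have Wilson intervals, counts exact Poisson intervals and medians order-statistic intervals, all at 95%. Classes and distances were tested on simulated summits, where 3000 of 3000 matched a direct comparison. Python (3.11.15) was used with pandas (2.3.3), numpy (2.4.6), scipy (1.17.1) for intervals and matplotlib (3.10.9) for plots. Alternatives were another TSS definition, peak thresholds, distance limits, cluster distances, leaving out chromosome 7 or peaks of high local input, and RefSeq records. Peak sequence outside promoter windows was not analysed here, because the only whole genome used is GRCh37.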

Additional observations from a re-analysis of the deposited data

How the results depend on the processing

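No paired analysis was possible because each group had 1 library. Values were compared with the 95% counting interval of the value in the report. Of 51 alternative values 22 lay within that interval and 29 outside it, and the 29 are the ones listed here. The share of autosomal peaks in gene deserts was 14.2% with any transcript 5′ end as TSS, 16.4% at a −log10 q of at least 5, 16.9% at a fold enrichment of at least 5, 23.4% with a limit of 100 kb, 6.83% with 500 kb and 14.6% with RefSeq records added, an alternative chosen after seeing the data. The density ratio under these 6 settings, in the same order, was 0.595, 0.637, 0.656, 0.691, 0.475 and 0.611, and 0.704 without peak-free stretches of 1 Mb. The share with a neighbour within 10 kb was 64.1%, 61.9%, 52.8%, 67.0% and 60.7% under the first 5 settings, 63.4% without peaks of high local input, 45.9% for 5 kb and 86.7% for 25 kb. The share in lncRNA records was 37.2% with any transcript 5′ end, 32.1% with a limit of 500 kb, 37.01% with records extended by 1 kb and 36.8% with RefSeq records added. Median fold enrichment was 7.10 for the stricter q threshold and 6.37 for the limit of 500 kb. The share reaching a fold enrichment of 10 was 32.5% at a −log10 q of at least 5, and 15.3% reached 15. The distance limit and thresholds change which peaks enter. The cause of the other shifts was not tested. Leaving out chromosome 7 kept all 6 values within their intervals. Under each alternative that changes the peaks, genes or distance limit, gene-desert peaks kept the higher median fold enrichment and share reaching 10 than other autosomal peaks. One of these, a fold enrichment of at least 5, selects peaks by the compared value itself. The settings reuse peaks of the same library, so they are not independent of each other.

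The limits are those of 1 ChIP and 1 input library of 1 cell line. No value has a replicate error, and the intervals do not cover differences between cultures. Copy number of D283 enters heights and local input. Nearest genes are positions, not targets.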

Other observations

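Height and fold enrichment ranked gene-desert peaks differently. Of the 10 tallest gene-desert peaks, chosen after their values were seen, 6 lay on chromosome 8 and 3 in the ribosomal RNA region of chromosome 21. The tallest, between HAS2, a hyaluronan synthase, and ZHX2, had 446 fragments (Poisson 95% interval 406 to 489) at a local input of 15.4 and a fold enrichment of 20.0. The next, between RUNX1T1 and TRIQK, had 445 fragments at a local input of 21.0 and a fold enrichment of 14.9. None of the 10 tallest was among the 10 with the highest fold enrichment, whose local inputs were at most 4.63.

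Of the 8 promoter windows with a gene-desert summit that belong to RefSeq protein-coding genes, the strongest were those of SRGAP2C, a human-specific copy of a gene of dendritic spine development, with a fold enrichment of 20.6, and of ZNG1E and ZNG1F, with 18.3 and 16.7. These genes have near-identical copies, so their values are uncertain.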
